A study of Gossypium with 24 samples.

Results

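The difference between 2 cotton varieties in their response to waterlogging was measured by RNA sequencing of seedling roots at the end of 96 h in darkness (0 h). It rests on 12 of the 24 libraries of the series, chosen by their labels: 3 each of waterlogged 9001, control 9001, waterlogged 4847 and control 4847 roots. Per the labels, variety 9001 (ZM9001) tolerates waterlogging and variety 4847 (Z4847) is sensitive to it. Seedlings of both varieties were at the four-leaf stage, and all groups, controls included, spent the 96 h in the dark, so darkness is common to every value at 0 h. The other 12 libraries come from the same design after a further 24 h of light, with the flooded plants drained, and serve below to follow the genes found at 0 h. Nothing in the labels ties the 3 libraries of a group to different plants, and the p-values therefore cover library-to-library spread that may be technical. The files pair no gene ID with a name, so the root label could not be checked against marker genes and no pathway list could be applied.

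Waterlogging cuts the supply of oxygen to roots, because gases diffuse far more slowly in water than in air. Plant roots then depend more on glycolysis and fermentation for energy and shift metabolism, with GABA, alanine and other amino compounds accumulating, while growth and energy-costly synthesis are curtailed. Ethylene response factors of group VII, which are degraded when oxygen is present, are known from Arabidopsis and rice to switch on much of this programme. Upland cotton is an allotetraploid, so most genes exist as an A copy and a D copy.

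Here a response is the log2 fold change of waterlogged over control roots of 1 variety, and the variety difference is the response in 9001 minus the response in 4847. The responses themselves were broad. With the TMM scaling described below, a rise of at least 2-fold was called for 25.8% of the 50638 genes tested in 9001 and 25.0% in 4847. A fall was called for 29.8% in 9001 and 27.2% in 4847 (edgeR quasi-likelihood test, Benjamini-Hochberg adjusted p under 0.05). The median size of the response over all genes was 1.36 in 9001 and 1.24 in 4847 on the log2 scale. Depth was even across the 12 libraries, at 36096441 to 38699417 counts. Libraries of a group were further apart after waterlogging, with a biological coefficient of variation, the spread in excess of counting noise, of 11.4% in waterlogged 9001 and 7.23% in its control, and at 10.6% in waterlogged 4847 and 6.07% in its control.

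At the level of whole libraries, waterlogging reshaped the transcriptome further in 9001 than in 4847. With every library thinned to 21000000 counts, the number of genes with at least 10 counts changed by -4210 in 9001 and by -3023 in 4847, a difference of -1187 (SE 139, n = 3 libraries in each of 4 groups). The mean numbers were 35408 in waterlogged and 39618 in control 9001, and 36013 in waterlogged and 39036 in control 4847. Part of the difference thus lies in the controls. The share of counts held by the 100 most abundant genes changed by 6.20 percentage points in 9001 and by 4.77 in 4847, a difference of 1.44 (SE 0.222). The TMM factor, which offsets such concentration when libraries are scaled, was 0.584 ± 0.00926 in waterlogged 9001 and 1.06 ± 0.00689 in its control, and 0.654 ± 0.0112 in waterlogged 4847 and 1.05 ± 0.00196 in its control (SD, n = 3). For each of these measures the waterlogged libraries of a variety did not overlap its controls. Relative to library totals, the TMM factors raise every gene in the waterlogged libraries, and more so in 9001. The response of each variety, and the sorting of genes into rises and falls, therefore rests on this scaling. Counts of rises and falls in each variety were not taken under another scaling.

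The variety difference passed the test for 9841 genes, 19.4% of those tested, with 5052 higher and 4789 lower in 9001 (edgeR, adjusted p under 0.05). It was at least 2-fold for 3021 genes, or 5.97%. Of these, 1409 genes (2.78%) had the higher response in 9001 and 1612 (3.18%) had the lower. Larger differences were fewer, with 432 higher and 638 lower at 4-fold and 201 higher and 306 lower at 8-fold. The split between directions depended on the scaling. It was also near even with upper-quartile scaling, at 4988 higher and 4922 lower, and leaned to higher with RLE scaling, at 5518 and 4296. When libraries were scaled by their totals alone, 3136 genes were higher and 9491 lower, and the median difference of all genes shifted by -0.18 on the log2 scale. FPKM values are likewise scaled by library totals, without a TMM factor. With limma on log2(FPKM + 1), 3721 were higher and 8587 lower. Adding 1 also shrinks changes of low genes, and the 2-fold differences numbered 310 and 422. On log2(FPKM + 0.1) the calls were 3200 higher and 8689 lower. In whole roots, fewer cells of a type and less RNA per cell cannot be told apart.

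**Figure D1:**
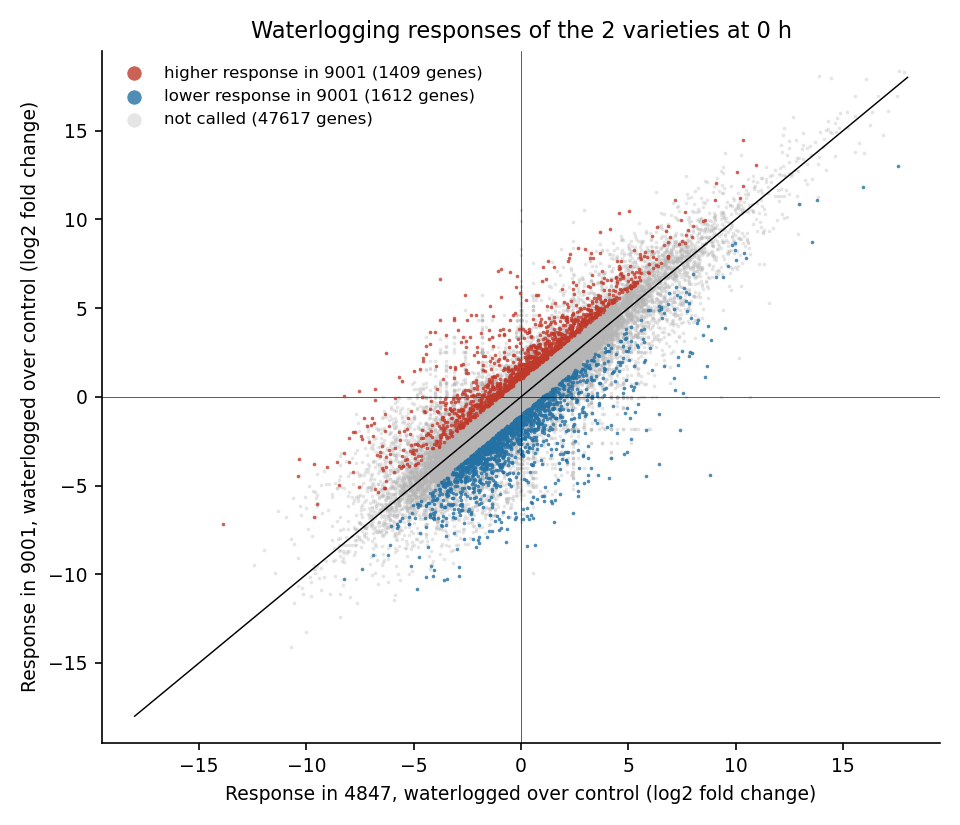
Each point is 1 of the tested genes, with its log2 fold change of waterlogged over control roots in 9001 on the y axis and in 4847 on the x axis; the diagonal marks equal responses. The 1409 genes with the higher response in 9001 (red) and the 1612 with the lower (blue) lie along both sides of the cloud.

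The commonest pattern among the 2-fold differences was one of degree in the same direction, as it was among all genes. Of the 3021 genes, 1492 (49.4%) rose in both varieties or fell in both at 2-fold, against 45.3% of all genes tested. A 2-fold response in 9001 alone was found for 818 (27.1%, against 10.1% of all genes), and in 4847 alone for 454 (15.0%, against 6.76%). A further 193 had none in either variety (6.39%, against 37.7%), and 64 moved in opposite directions (2.12%, against 0.126%). Opposite 2-fold responses amount to a difference of at least 4-fold, and every tested gene with them was called. The response was the larger in size in 9001 for 69.4% of the 3021 genes, against 58.6% of all genes tested. The classes were formed from the same libraries as the differences, so these counts describe the genes and test nothing further.

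Among genes with the higher response in 9001, the largest class by number was 528 genes that rose in both varieties. Their median levels were 23.3 CPM in waterlogged 9001 against 1.06 CPM in control 9001, and 13.0 CPM in waterlogged 4847 against 1.68 CPM in control 4847, so that the median response was 4.31 in 9001 and 2.62 in 4847. A further 332 genes rose in 9001 and had no 2-fold response in 4847, with median responses of 1.99 and 0.25. The reverse pattern also gave a higher response in 9001. Here 240 genes fell in 4847 with no 2-fold response in 9001, and 186 fell in both but further in 4847. The median responses of the 186 were -2.11 in 9001 and -3.95 in 4847. In the order given, these classes were 4.82%, 15.9%, 13.8% and 1.55% of all tested genes with the same pair of responses.

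Among genes with the lower response in 9001, 624 fell in both varieties and further in 9001. Their medians were 0.439 CPM in waterlogged 9001 against 6.44 CPM in control 9001, and 1.05 CPM in waterlogged 4847 against 5.48 CPM in control 4847. Another 486 genes fell in 9001 with no 2-fold response in 4847, at median responses of -2.06 and -0.20. A smaller number rose more in 4847: 214 rose in 4847 with no 2-fold response in 9001, and 154 rose in both. In the order given, these classes were 5.2%, 16%, 12.7% and 1.41% of all tested genes with the same pair of responses. The opposite responses comprised 26 genes that rose in 9001 and fell in 4847 and 38 that fell in 9001 and rose in 4847. Their levels were low, with group medians of at most 0.742 CPM in either set, and the number of such genes, 64 here, was 24 with a filter of 1 CPM, 22 with limma on log2(FPKM + 0.1) and 3 on log2(FPKM + 1).

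The larger response of 9001 was graded over the whole transcriptome. Genes were binned by the mean of both responses, and the median difference was taken in each bin. This is another view of the wider spread of responses in 9001 and is given as a description. With TMM scaling it ran from -0.40 for the 2174 genes with a mean response of -4 or less, through -0.16 for those between -2 and -1 and -0.05 for those between -1 and 1, to 0.10 between 1 and 2 and 0.39 for the 3067 genes above 4. Relative to the median of all genes, the 13901 genes with a mean rise of at least 2-fold stood at 0.21 and the 16001 with a mean fall at -0.17. Within the quartiles of every bin there were genes on both sides of 0. Restricting both lists to genes with at least 30 counts in each of the 4 groups gave 0.20 over 8641 genes and -0.15 over 8834. The sign of both values held under each alternative tried, between 0.15 and 0.29 for risers and between -0.22 and -0.11 for fallers.

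**Figure D2:**
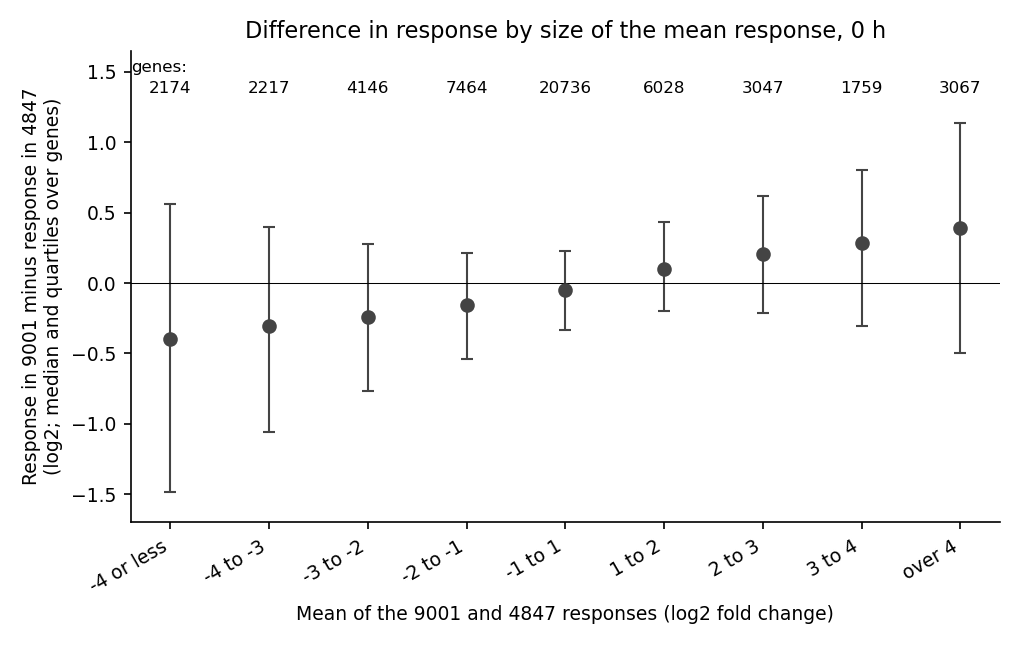
The y axis gives the response in 9001 minus the response in 4847 (log2; point, median; bars, quartiles over genes) for genes grouped on the x axis by the mean of the 2 responses, with the number of genes above each group. The medians climb from -0.40 among the strongest fallers to 0.39 among the strongest risers, while the quartiles of every group span 0.

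A variety difference in response can arise in the waterlogged roots or in the controls. Varieties differed by at least 2-fold for 8.39% of genes tested in waterlogged roots (4.72% higher and 3.67% lower in 9001) and for 4.02% in control roots (2.55% higher and 1.47% lower in 9001). Of the 3021 genes, 1599 differed between varieties in waterlogged roots only, 438 in control roots only, 79 in both in the same direction, 61 in both in opposite directions and 844 in neither at 2-fold. The difference in response is the variety difference in waterlogged roots minus that in control roots. The split therefore describes the genes and tests nothing further. The share of all tested genes with each pattern was not taken. The 745 genes of the first kind with the higher response in 9001 had medians of 4.39 CPM in waterlogged 9001 against 2.25 CPM in control 9001, and 1.55 CPM in waterlogged 4847 against 2.36 CPM in control 4847. The 854 with the lower response had medians of 0.476 and 3.56 CPM in waterlogged and control 9001, and 1.41 and 3.27 CPM in waterlogged and control 4847. In the 438 genes of the second kind the varieties were far apart in the dark controls and close after waterlogging. For 195 of them the control level was lower in 9001, with a median variety difference (9001 minus 4847) of 0.26 in waterlogged and -1.67 in control roots on the log2 scale, and for 243 it was higher, with -0.32 in waterlogged and 1.80 in control roots.

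The 4 genes followed in every library are those with the largest differences in each direction among 8043 genes that passed the test, reached a mean of 5 CPM in 1 group and had at least 30 counts in each of the 4 groups. They were chosen by their difference, so its size is a description. No name or role accompanies these IDs in the files.

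Ghir_D11G030180, on chromosome D11, moved in opposite directions. It had 13.4, 10.6 and 9.46 CPM in waterlogged 9001 and 2.56, 3.22 and 2.67 CPM in control 9001, against 1.08, 1.26 and 1.26 CPM in waterlogged 4847 and 4.70, 4.92 and 4.86 CPM in control 4847. No 2 groups overlapped: it was highest in waterlogged 9001 and lowest in waterlogged 4847, with the controls between them. Its response was 1.99 in 9001 (SE 0.164) and -2.004 in 4847 (SE 0.202), both called by edgeR (adjusted p of 1.03e-14 and 4.21e-12), giving a difference of 3.99 (SE 0.259, edgeR adjusted p = 3.61e-16). On log2(FPKM + 1) the difference was 1.29. Per length it was a low-abundance gene, at 1.25 ± 0.244 FPKM in waterlogged 9001 and 0.572 ± 0.0683 FPKM in its control, and 0.151 ± 0.0107 FPKM in waterlogged 4847 and 0.970 ± 0.0210 FPKM in its control (SD, n = 3).

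Ghir_D10G026110, on chromosome D10, also moved in opposite directions on the TMM scale, but with more spread. It had 3.03, 3.80 and 1.60 CPM in waterlogged 9001 and 0.821, 1.15 and 1.37 CPM in control 9001, against 0.540, 0.547 and 1.89 CPM in waterlogged 4847 and 5.40, 5.83 and 5.36 CPM in control 4847. On the TMM scale, waterlogged and control libraries did not overlap within each variety. The waterlogged libraries of the varieties did overlap, and the clearest separation was the high level in control 4847. Its response was 1.33 in 9001 (SE 0.276) and -2.48 in 4847 (SE 0.270), both called by edgeR (adjusted p of 3.51e-05 and 3.91e-11), giving a difference of 3.80 (SE 0.390, edgeR adjusted p = 1.98e-10). Without waterlogged 4847 replicate 3, the library at 1.89 CPM, the difference was 4.67, and on log2(FPKM + 1) it was 1.87. In FPKM, which carries no TMM factor, 9001 had 0.941 ± 0.367 in waterlogged and 0.676 ± 0.169 in control roots. That gain is within the spread of the waterlogged libraries. In 4847 the FPKM values were 0.372 ± 0.290 in waterlogged and 3.33 ± 0.156 in control roots (SD, n = 3).

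Ghir_A10G005200, on chromosome A10, rose in both varieties and far more in 4847. It had 69.0, 78.0 and 75.0 CPM in waterlogged 9001 and 21.5, 23.7 and 22.1 CPM in control 9001, against 238.1, 243 and 239 CPM in waterlogged 4847 and 2.36, 2.22 and 2.48 CPM in control 4847. The order of the varieties was thus reversed by treatment, 9001 being higher in the dark controls and 4847 after waterlogging, with no overlap between any groups. Its response was 1.72 in 9001 (SE 0.0629) and 6.67 in 4847 (SE 0.0825), both called by edgeR (adjusted p of 1.71e-27 and 1.32e-45), giving a difference of -4.94 (SE 0.105, edgeR adjusted p = 1.73e-33).

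Ghir_A12G024830, on chromosome A12, rose more than 2-fold in 4847 and, on the TMM scale, fell slightly in 9001. It had 5.45, 5.61 and 4.52 CPM in waterlogged 9001 and 6.34, 7.99 and 6.75 CPM in control 9001, against 17.4, 19.3 and 16.7 CPM in waterlogged 4847 and 1.02, 2.00 and 1.30 CPM in control 4847. Here too no groups overlapped, and control 4847 was the lowest group while waterlogged 4847 was the highest. Its response was -0.44 in 9001 (SE 0.131) and 3.62 in 4847 (SE 0.136), both called by edgeR (adjusted p of 0.00272 and 5.31e-27), giving a difference of -4.06 (SE 0.191, edgeR adjusted p = 1.17e-20).

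**Figure D3:**
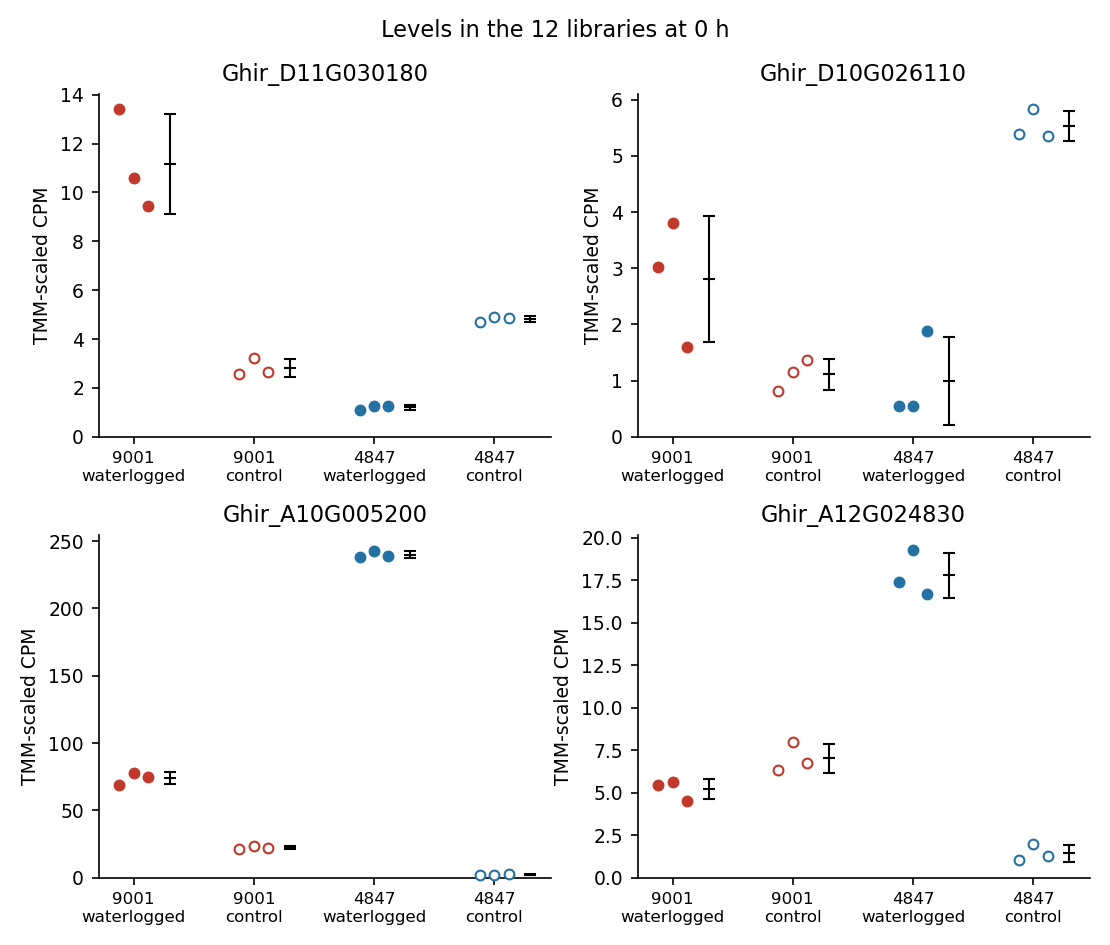
TMM-scaled CPM (y axis) of 4 genes in the 12 libraries at 0 h, by group on the x axis; circles are libraries (filled, waterlogged; open, control) and the bar beside them is the mean with its SD. Ghir_D11G030180 and Ghir_D10G026110 run in opposite directions in the 2 varieties, Ghir_A10G005200 averages 74.0 CPM in waterlogged 9001 against 239.8 CPM in waterlogged 4847, and Ghir_A12G024830 is highest in waterlogged 4847.

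The 2 directions differed in abundance. The median of the highest group level was 8.27 CPM among the 1409 genes with the higher response in 9001, 4.20 CPM among the 1612 with the lower and 6.96 CPM among all genes tested. At least 100 CPM in 1 group was reached by 146 of the first (10.4%) and 57 of the second (3.54%), against 7.85% of all genes. At least 1000 CPM was reached by 14 (0.994%) and 2 (0.124%), against 0.456% of all genes. Together the first held 4.67% ± 0.0106 of counts in waterlogged 9001 and 1.22% ± 0.00456 in its control, and 2.98% ± 0.0427 in waterlogged 4847 and 1.40% ± 0.00946 in its control (SD, n = 3). The second held 0.619% ± 0.00687 and 2.16% ± 0.0262 in waterlogged and control 9001, and 1.08% ± 0.00232 and 1.73% ± 0.00344 in waterlogged and control 4847. Both sets were chosen by their difference in these same libraries, so these shares describe them and test nothing further. The share of genes called at 2-fold ran from 3.97% below 1 CPM to 8.77% between 1 and 5 CPM and was 4.59% between 20 and 100 CPM. At least 1 of the 4 groups had under 30 counts for 431 of the genes with the higher response (30.6%) and 764 of those with the lower (47.4%), against 31.4% of all genes, so the size of those differences is poorly fixed. For 143 (10.1%) and 260 (16.1%) a group had at most 3 counts, against 15.2% of all genes.

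Genes with a variety difference were spread over the genome. On A and D chromosomes, 2.86% and 2.70% of tested genes had the higher response in 9001 and 3.12% and 3.24% the lower. By chromosome, the higher share ran from 1.92% on D08 to 3.30% on A01, and the lower from 2.44% on D01 to 3.88% on A10. Genes of the same class more often had adjacent ID numbers than genes in general: 10.3% of those with the higher response had a tested neighbour of that class, against 5.44% of all tested genes, and 8.75% against 6.27% for the lower. Runs stayed short, with at most 4 and 3 consecutive genes. Median gene length, as recovered from the FPKM values, was 1802 bases for the higher class, 1882 for the lower and 1898 for all tested genes.

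**Figure D4:**
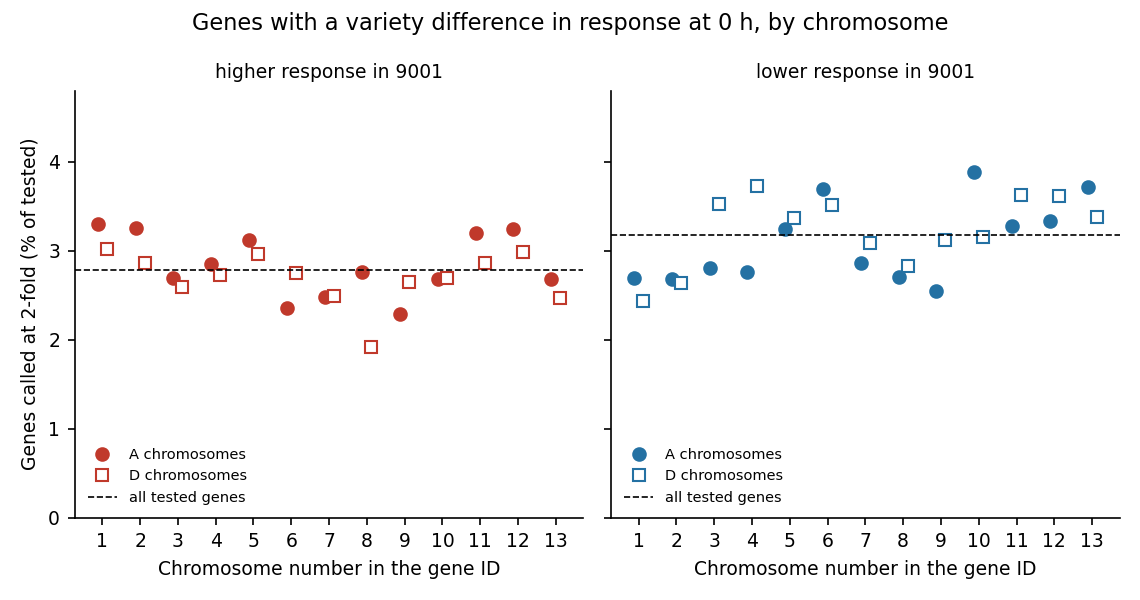
Share of tested genes (y axis, %) called at 2-fold with the higher (left) or lower (right) response in 9001, by the chromosome number in the gene ID (x axis; filled circles, A; open squares, D); the dashed line is the share over all tested genes, 2.78% on the left and 3.18% on the right. The points scatter around the line, between 1.92% and 3.30% on the left and between 2.44% and 3.88% on the right.

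The 24 h libraries show the same genes after draining and re-lighting. They enter no contrast at 0 h, but all 24 libraries shared 1 filter, scaling and estimate of dispersion. Over all genes tested, 18.8% had a response at least 2-fold higher in 9001 at 24 h and 10.6% a lower one (edgeR, adjusted p under 0.05). Of the 1612 genes with the lower response in 9001 at 0 h, 683 (42.4%) had the higher response at 24 h and 189 (11.7%) kept the lower. Of the 1409 genes with the higher response at 0 h, 310 (22.0%) had the lower response at 24 h and 276 (19.6%) kept the higher. Both classes were thus called in the opposite direction more often than genes in general, and in the same direction at a share near the background. When the 0 h and 24 h libraries were fitted apart, an alternative added after seeing the data, 530 of 1300 genes of the lower class (40.8%) had the higher response at 24 h, against 17.1% of all genes, and 308 of 1245 of the higher class (24.7%) had the lower, against 12.2%. The median difference at 24 h in the joint fit was 0.89 for the lower class and -0.07 for the higher class, against 0.13 for all genes.

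In terms of each variety, the lower class had median responses at 0 h of -2.39 in 9001 and -0.42 in 4847. At 24 h they were -0.40 in 9001 and -1.30 in 4847. The higher class had median responses at 0 h of 2.01 in 9001 and 0.21 in 4847, and at 24 h of 0.54 and 0.52. A contrast with other genes was also seen among genes whose mean response at 0 h had the same direction. The genes compared were not matched on the size of that response. The lower class made up 8.57% of genes with a mean response between -4 and -3, but 3.64% between -2 and -1. Of the genes with a mean fall of at least 2-fold, 28.3% had the higher response in 9001 at 24 h, but 47.5% of the 917 among them in the lower class. Of the genes with a mean rise, 15.0% had the lower response at 24 h, but 27.7% of the 719 among them in the higher class. Waterlogged 4847 at 24 h had 22035053 ± 539319 counts and a biological coefficient of variation of 14.4%, so its values were less precise than those of any group at 0 h. When libraries were scaled by their totals alone, the median of all genes at 24 h shifted by 0.44; the lower class was then called higher for 52.1% against 29.4% of all genes, and the higher class lower for 12.7% against 5.52%. With limma on log2(FPKM + 1) these shares were 28.9% against 13.4% and 9.35% against 3.77%, but the median of the lower class relative to all genes was -0.03, where it was 0.75 in the edgeR fit.

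Among the followed genes, some turned and some kept their sign. Ghir_A12G024830 averaged 31.4 ± 1.80 CPM in formerly waterlogged 9001 and 83.8 ± 1.71 CPM in its control at 24 h, against 3.15 ± 0.962 CPM in formerly waterlogged 4847 and 126.2 ± 6.43 CPM in its control (SD, n = 3). The difference was then 3.90 (SE 0.149, edgeR adjusted p = 1.63e-25), opposite in sign to that at 0 h. Ghir_A10G005200 had turned likewise, to 1.70 (SE 0.106, edgeR adjusted p = 4.96e-18). Ghir_D11G030180 kept its sign, at 2.11 (SE 0.253, edgeR adjusted p = 1.62e-09), and so did Ghir_D10G026110, at 0.89 (SE 0.266, edgeR adjusted p = 0.0041). The value of Ghir_D10G026110 is under 2-fold, so it is not among the genes counted above as keeping the higher response.

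**Figure D5:**
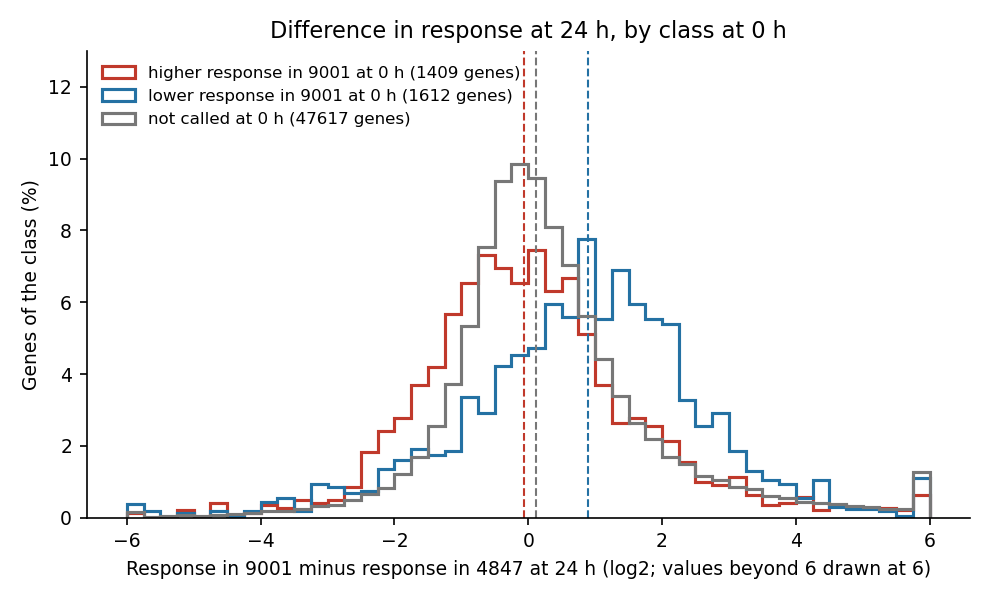
Distribution over genes of the response in 9001 minus the response in 4847 at 24 h (x axis, log2; y axis, % of the class), for genes with the higher (red) or lower (blue) response in 9001 at 0 h and genes not called at 0 h (grey); dashed lines are medians. The blue distribution, with its median at 0.89, lies to the right of the other two.

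Where the varieties had differed in control roots only at 0 h, the difference recurred in the 24 h controls more often than in the background. Of the 243 such genes that were higher in 9001, 18.9% were at least 2-fold higher in 9001 at 24 h, against 2.66% of all genes, and 0.412% were lower. Of the 195 that were lower in 9001, 28.2% were lower again, against 1.64% of all genes, but 6.15% were higher, which also exceeds the 2.66% of all genes. With the 24 h libraries fitted apart, 25.0% of 164 such genes were higher again, against 2.69% of all genes, and 26.9% of 171 lower again, against 1.36%. Differences seen in waterlogged roots only recurred at shares nearer the background, and those lower in 9001 were more often called in the opposite direction. Of the 854 genes lower in waterlogged 9001 at 0 h, 13.2% were lower in formerly waterlogged 9001 than in formerly waterlogged 4847 at 24 h, against 10.0% of all genes, and 39.5% were higher, against 19.6%. Of the 745 genes higher in waterlogged 9001, 25.2% were higher again, against that same 19.6%, and 10.7% were lower, against 10.0%. In the fits apart, 37.9% of 726 genes of the lower set were higher, against 17.5% of all genes. A further 15.2% of them were lower again, against 10.6% of all genes. Of 645 genes of the higher set, 22.0% were higher again and 12.4% were lower, against those same 17.5% and 10.6%.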

How the data were processed

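Per the labels' protocols, RNA came from a Qiagen RNeasy kit and was made into cDNA libraries with a SMARTer kit. The authors deposited whole-number counts for 60633 gene IDs and an FPKM table, whose values equal the deposited counts per library total and per gene length; 1 malformed FPKM line was left out. How reads were aligned and counted, and whether strand was used, is not given in the sources used here, and the build named in the submitters' processing notes, mm10, is a mouse assembly. Counts of near-identical A, D or tandem copies are uncertain.

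All 24 libraries entered 1 edgeR 4.0.16 fit (R 4.3.3; filterByExpr, TMM, glmQLFit) (8 group means, 16 residual degrees of freedom). The contrast was the response in 9001 minus that in 4847, adjusted over 50638 genes by Benjamini-Hochberg, threshold 0.05. SE is the change divided by the square root of F. CPM values are TMM-scaled. DESeq2 1.42.0 and limma 3.58.1 served as alternatives, FPKM on log2(FPKM + pseudocount). Without gene names, the rule for named genes gave 2 IDs in each direction. The samples, lists and rules were chosen with earlier results of these data known.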

Additional observations from a re-analysis of the deposited data

Results flagged for a closer look

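The response to waterlogging at 0 h differed between the varieties, by the test of the difference itself, for 9841 genes (edgeR, adjusted p under 0.05). The genes followed above were chosen among them by the size of the difference, so that each passes was fixed by the choice. The difference in response, 9001 minus 4847 on the log2 scale, was 3.99 for Ghir_D11G030180 (edgeR adjusted p = 3.61e-16) and 3.80 for Ghir_D10G026110 (edgeR adjusted p = 1.98e-10). It was -4.94 for Ghir_A10G005200 (edgeR adjusted p = 1.73e-33) and -4.06 for Ghir_A12G024830 (edgeR adjusted p = 1.17e-20). The first 2 kept their sign at 24 h, and the other 2 turned.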

How the results depend on the processing

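The number of genes with a variety difference at 0 h stayed within 1.5 times the reported 9841 in all 24 alternatives, between 8080 (limma-voom with quality weights per group, chosen after seeing the data) and 12627 (library totals), and it was 9156 with only the 12 libraries at 0 h, a fit that gives no value at 24 h. Leaving out 1 library gave 8776 to 9426. The 2-fold counts changed beyond that with limma on log2(FPKM + 1), to 310 higher and 422 lower, or 308 and 418 with no filter, and with library totals to 2582 lower. The share of 2-fold genes with the larger response in 9001 was 74.8% with library totals and 75.8% on log2(FPKM + 0.1). The median of risers relative to all genes was 0.20 with RLE scaling and with DESeq2 (0.199 and 0.200), 0.29 with library totals and on log2(FPKM + 0.1) (0.286 and 0.289), 0.19 with no filter on counts and on log2(FPKM + 1) (0.189 and 0.192), and 0.15 on log2(FPKM + 1) with no filter. That of fallers was -0.12 with library totals and on log2(FPKM + 0.1) (-0.123 and -0.119), -0.21 with no filter on counts and -0.11 on log2(FPKM + 1). Leaving out 1 library gave 0.20 to 0.23 and -0.22 to -0.14. Genes lower at 0 h and higher at 24 h numbered 1344 with library totals, and 122 or 120 on log2(FPKM + 1) with or without the filter. Separate fits of the 0 h and 24 h libraries gave 530. Those higher and then lower numbered 122 with library totals, 126 on log2(FPKM + 0.1), and 29 on log2(FPKM + 1) with and without the filter, and 308 in separate fits. Genes whose varieties differed in waterlogged roots only numbered 318, and in control roots only 151, on log2(FPKM + 1). The FPKM fits carry no TMM factor and so share the scaling by library totals. The cause of these shifts was not tested. The followed genes kept their call and sign in all 24 alternatives, but not their size: on log2(FPKM + 1) the difference was 1.29 for Ghir_D11G030180 and 1.87 for Ghir_D10G026110, and over all alternatives it lay between 1.29 and 4.11, 1.87 and 4.67, -5.12 and -4.36 for Ghir_A10G005200, and -4.37 and -3.34 for Ghir_A12G024830. With a replicate block 9479 genes passed; same-numbered libraries did not deviate together (mean correlations of -0.01 to 0.02 between groups at 0 h), so the numbers were not taken as pairs.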

Other observations

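Some genes were silent in 1 variety throughout the 0 h libraries. Of those with at least 100 counts over the 6 libraries of the other variety, 31 had at most 3 counts over the 6 libraries of 9001 and 40 had at most 3 over those of 4847. A difference in response can hardly be measured for a gene that is barely counted in 1 variety. Of these genes, 0 of the 31 and 3 of the 40 passed the test (edgeR, adjusted p under 0.05), against 19.4% of all genes. The 3 are also among the 2-fold genes, and their response in 4847 rests on at most 3 counts.

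The tested gene with the ID number just before Ghir_A10G005200 had a difference of the same sign, but its mean was lower after waterlogging in 9001. It averaged 1.68 CPM in waterlogged 9001 against 2.53 CPM in control 9001, and 5.37 CPM in waterlogged 4847 against 0.730 CPM in control 4847, a difference of -3.46 (SE 0.429, edgeR adjusted p = 2.08e-08). The one before Ghir_D11G030180 averaged 17.6 CPM in waterlogged 9001 against 6.27 CPM in control 9001, and 11.5 CPM in waterlogged 4847 against 20.6 CPM in control 4847, a difference of 2.32 (SE 0.190, edgeR adjusted p = 3.59e-13). The one before Ghir_A12G024830 differed in the other direction, by 1.69 (SE 0.0781, edgeR adjusted p = 6.46e-21), and the one after Ghir_A10G005200 differed by -0.44 (SE 0.106, edgeR adjusted p = 0.00192). The other 4 of the 8 neighbours were not called, with differences between -0.03 and 0.96 and edgeR adjusted p of 0.103 to 0.869. These neighbours were looked at after the values of the followed genes were seen, and whether any pair shares reads was not tested.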
